A study of Ovis aries with 8 samples.

Results

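The genes described here carry the type I interferon response and the MHC class I pathway in pancreatic islets of near-term sheep fetuses. They were chosen by symbol: a member is a row of the expression table whose gene name equals 1 of 35 fixed symbols. Of these symbols 30 had a row, among 25000 rows in all, and TAP2, IFNAR1, ISG15, CXCL10 and USP18 were not analysed here under those names. A filter on low values (a mean of at least 1 FPKM over the 8 animals) kept 29 of the 30 among 13252 rows tested. GBP2, a guanylate-binding GTPase, did not pass, at 0.0592 to 0.337 FPKM in norepinephrine fetuses and 0.0674 to 0.430 FPKM in controls.

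The study compared islets of 4 singleton Columbia-Rambouillet fetuses infused with norepinephrine through a vein for 7 days with islets of 4 fetuses given only the diluent, ascorbic acid in saline. The rate was stepped up over the week: 1 µg/min for the opening day, 2 µg/min through day 4, then 4 µg/min until day 7. The norepinephrine fetuses were 137 to 139 days of gestation and weighed 2.8 to 3.7 kg, and the controls were 139 to 140 days and weighed 3.6 to 5 kg. Norepinephrine 3 and control 2 were female, and the other fetuses were male. Each library is 1 animal, and messenger RNA was read as FPKM, fragments scaled to transcript length and to the mapped fragments of the library. Animal numbers begin with 09 or 10, and these digits crossed the groups unevenly. Norepinephrine 2 and controls 1, 3 and 4 carry numbers starting with 10, and norepinephrine 1, 3 and 4 and control 2 carry numbers starting with 09. The labels do not say what these digits mean. Animals numbered 10 were 139 to 140 days of gestation and weighed 3.7 to 5 kg. Those numbered 09 were 137 to 139 days and weighed 2.8 to 3.6 kg. The number sets did not overlap in weight, so weight and number set cannot be told apart here.

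Type I interferons bind a receptor made of IFNAR1 and IFNAR2, and the signal passes through JAK1 and TYK2 to STAT factors such as STAT2, which join IRF9 and switch on interferon-stimulated genes (ISGs) in the nucleus. Many ISG products bind or cut viral RNA, and others sense RNA and start the loop again. The same signals raise MHC class I, which shows peptides at the cell surface with beta-2 microglobulin (B2M) as its light chain. In islets this pathway is known above all from the immune attack on beta cells in type 1 diabetes.

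Summed FPKM lay between 768021 and 796149 in the 4 libraries numbered 10 and between 981583 and 1112624 in the 4 numbered 09. Islet endocrine markers summed to 11667 to 18084 FPKM with norepinephrine and to 8741 to 14956 FPKM in controls, with IAPP at 0 in all 8 animals. Of 15 tested, 14 had a difference above 0, with a median of 0.29, where 47.4% of all rows were below 0. The 23 leukocyte and macrophage markers with a row summed to 266 to 378 FPKM with norepinephrine and to 246 to 342 FPKM in controls, and none was at 0 in all animals. Of the 13 leukocyte markers tested, 6 had a difference below 0 and the median was 0.018. By number set the median was -0.31 in animals numbered 10 (11 of 13 below 0) and 0.36 in those numbered 09 (3 of 13). Acinar markers were the least even: they summed to 139 to 1074 FPKM with norepinephrine and to 127 to 177 FPKM in controls, and the difference was above 0 in all 8 tested. Among the animals numbered 10, norepinephrine 2 was below the mean of the controls in 6 of the 8 (median -0.70). Duct markers summed to 169 to 451 FPKM with norepinephrine and to 110 to 195 FPKM in controls. Of 5 tested, 4 were above 0, with a median of 0.98. Mesenchymal markers summed to 381 to 2029 FPKM with norepinephrine and to 525 to 827 FPKM in controls. Of 9 tested, 5 were below 0, with a median of -0.099. Norepinephrine 2 was below the mean of the controls numbered 10 in all 9 (median -0.72). Endothelial markers summed to 186 to 423 FPKM with norepinephrine and to 259 to 363 FPKM in controls. Of 10 tested, 9 were below 0, with a median of -0.22, and -0.52 with the number digits as a covariate. Norepinephrine 2 was below the mean of the controls numbered 10 in all 10 (median -0.54). It was below that mean in only 2 of 5 duct and 2 of 15 islet endocrine markers. The part of these marker lists in the results below was not tested. In whole islets, fewer cells of a type and less RNA per cell cannot be told apart.

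No member passed in the comparison of norepinephrine with control islets. At an adjusted p under 0.05 (limma, all rows) 0 of 29 members and 0 of 13252 rows were called (0%), and the lowest adjusted p of a member was 0.597. Before adjustment 3 members reached p under 0.05, MX2 and RSAD2 lower and CD74 higher, where 975 rows did (7.36%; 3.74% lower and 3.61% higher). In 0 of 29 members did the groups stand apart without overlap, against 4.23% of all rows. All differences are of log2(FPKM + 1), norepinephrine minus control, a scale that understates changes of low genes. Members below 0 numbered 21 of 29, where 47.4% of all rows were below 0. The median member difference was -0.18, and the median of all rows was 0.017. Leaving out 1 animal gave member medians from -0.28 without control 2, with 24 members below 0, to -0.017 without control 3, with 16 below 0. In males only the median was -0.31, with 23 below 0. With the number digits as a covariate it was -0.062, with 18 below 0 where 52.8% of all rows were. That model called 0 of 29 members after adjustment (0.00755% of all rows), and before adjustment it reached p under 0.05 in B2M, TAPBP, IRF8 and IFI35, all lower (background 7.14% lower). With gestational age as a covariate the member median was -0.090. Leaving out 1 animal moved the difference by over 1.5 times or turned its sign in 25 of 29 members, the exceptions being CD74, IFIT1, IFIT2 and RSAD2.

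**Figure D1:**
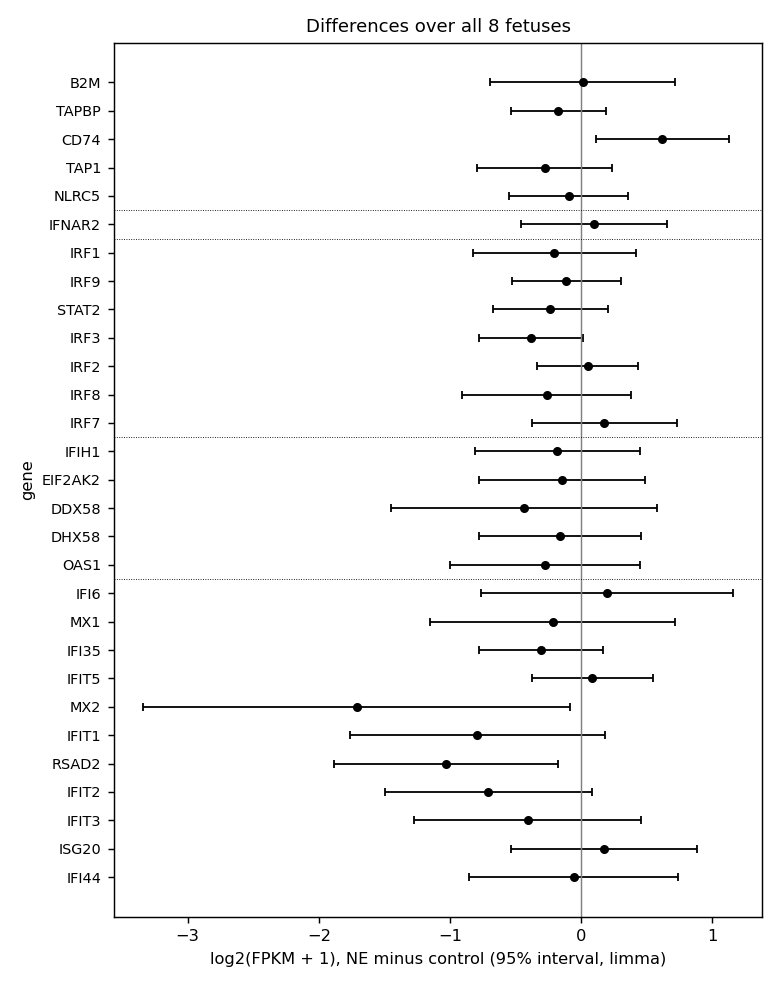
Difference of each tested gene between 4 norepinephrine and 4 control fetuses on the log2(FPKM + 1) scale, points with 95% intervals from limma, genes grouped by role (dotted lines). The intervals of MX2, RSAD2 and CD74 do not cross 0, before any adjustment for the number of rows tested.

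Among the members, the antiviral effectors varied most between animals. MX1, a dynamin-like GTPase that traps viral ribonucleoproteins, and its neighbour MX2 lie side by side on chromosome 1 (build Oar_v3.1), at 259737321 to 259762804 and 259688071 to 259716801. MX1 stood at 60.0, 39.5, 42.8 and 38.1 FPKM in norepinephrine 1 to 4 and at 76.6, 20.9, 98.0 and 45.1 FPKM in control 1 to 4. The norepinephrine values fell inside the range of the controls, which differed among themselves by 4.69-fold. The mean was 45.1 ± 10.1 FPKM with norepinephrine and 60.1 ± 34.0 FPKM in controls (SD, n = 4 each; log2 difference -0.22, SE 0.42, limma adjusted p = 0.909). That sign turned without control 3, and with the number digits or gestational age as a covariate.

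MX2 stood at 12.9, 1.22, 14.4 and 6.23 FPKM with norepinephrine and at 41.6, 7.21, 53.7 and 19.7 FPKM in controls. Controls 1, 3 and 4 lay above every norepinephrine animal, while control 2 lay among them. MX2 averaged 8.69 ± 6.12 FPKM with norepinephrine and 30.6 ± 21.0 FPKM in controls, the largest member difference (-1.71, SE 0.72, 95% interval -3.34 to -0.08, limma adjusted p = 0.665). Without norepinephrine 2 that difference was -1.12. From the lowest to the highest animal it spanned 43.9-fold, and its spread within groups exceeded that of 98.5% of all rows. MX1 and MX2 are paralogs, so reads they share could be split between them.

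RSAD2, or viperin, an enzyme that makes a chain-ending nucleotide against viruses, lies on chromosome 3 at 16603323 to 16619665. Its values were 13.1, 6.61, 10.2 and 4.74 FPKM with norepinephrine and 30.7, 9.25, 21.4 and 15.7 FPKM in controls. Again control 2 was the control that reached into the norepinephrine range. The means were 8.68 ± 3.74 FPKM with norepinephrine and 19.3 ± 9.11 FPKM in controls (-1.03, SE 0.38, limma adjusted p = 0.597). With gestational age in the model the difference was -0.36. CMPK2, a mitochondrial nucleotide kinase whose gene neighbours RSAD2 on chromosome 3 (16573128 to 16590905), averaged 12.0 ± 2.85 FPKM with norepinephrine and 16.9 ± 3.03 FPKM in controls (-0.48, SE 0.20, adjusted p = 0.655).

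The IFIT proteins clamp onto foreign RNA ends and block its translation, and their 4 genes line up on chromosome 22 between 10770400 and 10835980. IFIT1 stood at 17.8, 6.49, 9.26 and 7.25 FPKM with norepinephrine and at 25.5, 7.24, 29.4 and 15.2 FPKM in controls, with norepinephrine 1 high and control 2 low within their groups. Its log2 difference was -0.79 (SE 0.43, limma adjusted p = 0.704). IFIT2 stood at 10.9, 4.24, 10.2 and 4.33 FPKM with norepinephrine and at 17.1, 7.58, 14.9 and 9.75 FPKM in controls, and the groups overlapped (-0.71, SE 0.35, adjusted p = 0.681). IFIT3 differed by -0.41 (SE 0.38), with -0.15 without control 3, -0.17 without norepinephrine 2, and -0.67 without norepinephrine 1 or control 2. IFIT5 was unlike its neighbours, at 30.4 to 47.7 FPKM with norepinephrine and 25.6 to 43.2 FPKM in controls, a difference of 0.084 (SE 0.20) that turned negative with equal library totals.

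IFI6, a small membrane protein of the endoplasmic reticulum that blocks flavivirus replication, had the highest mean among the effectors. It stood at 96.0, 52.1, 67.7 and 54.1 FPKM with norepinephrine and at 76.2, 43.2, 123 and 26.0 FPKM in controls. All 4 norepinephrine values lay within the control range. The means were nearly equal, 67.5 ± 20.2 FPKM with norepinephrine and 67.1 ± 42.7 FPKM in controls (0.19, SE 0.43, adjusted p = 0.923; -0.18 without control 4). ISG20, an RNA exonuclease on chromosome 18 (18789099 to 18805714), stood at 3.24, 0.699, 2.73 and 3.17 FPKM with norepinephrine and at 1.69, 2.63, 2.06 and 1.30 FPKM in controls. Norepinephrine 2 was the lowest animal and the other norepinephrine animals were above all controls (0.17, SE 0.31, adjusted p = 0.904; 0.49 without norepinephrine 2 and 0.048 without norepinephrine 1). IFI35 and IFI44 differed by -0.30 (SE 0.21) and -0.058 (SE 0.35).

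**Figure D2:**
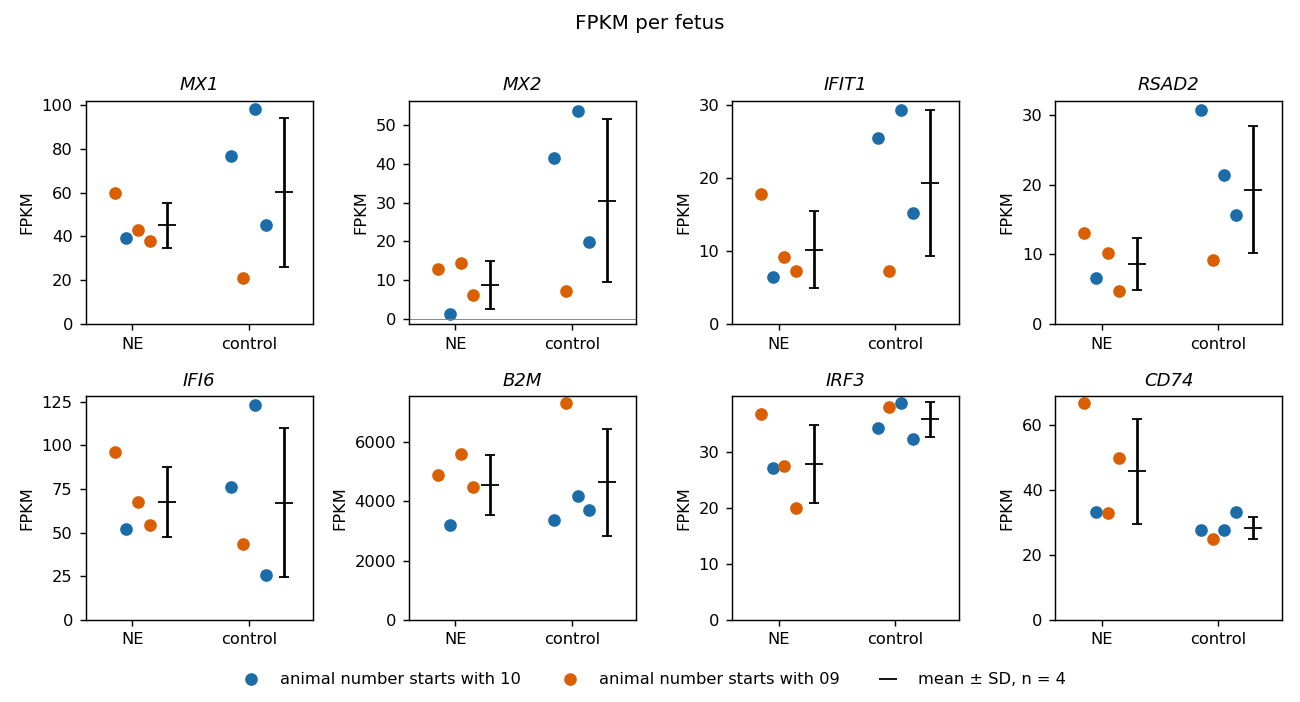
FPKM of 8 genes in each fetus (points, coloured by number set, 10 or 09), with mean ± SD (n = 4) beside the points, norepinephrine (NE) left and control right. In MX1, MX2, IFIT1 and RSAD2 control 2 (09) lies with or below the norepinephrine animals and controls 1 and 3 (10) lie highest; B2M has control 2 highest, and CD74 has norepinephrine 1 highest.

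The median residual SD within groups was 0.64 for the 11 effectors tested, 0.46 for the 5 RNA sensors, 0.36 for the 5 antigen presentation genes and 0.30 for the 7 STAT and IRF factors, on the log2(FPKM + 1) scale. Over all rows it was 0.29. Among the cell type markers it was 1.16 for acinar, 0.92 for mesenchymal and 0.63 for duct genes. It was 0.43 for endothelial, 0.42 for leukocyte and macrophage and 0.37 for islet endocrine genes. In 8 members, MX1, MX2, IFIT1, IFIT2, IFIT3, IFI6, DDX58 and RSAD2, the spread was above the 90th percentile of all rows, which 10% of rows exceed. Control 3 had the highest value of the 8 in 15 of 29 members (background 7.95%). Control 1 was highest in 3 of 29, near its background of 9.09%. Norepinephrine 2 was lowest in 10 of 29 (background 15.2%) and control 2 in 9 of 29 (background 14.7%). By mean log2(FPKM + 1) over the 11 effectors the animals ranked control 3 at 4.70, control 1 at 4.51, norepinephrine 1 at 4.22, norepinephrine 3 at 3.86, control 4 at 3.82, norepinephrine 4 at 3.47, control 2 at 3.46 and norepinephrine 2 at 3.20.

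**Figure D3:**
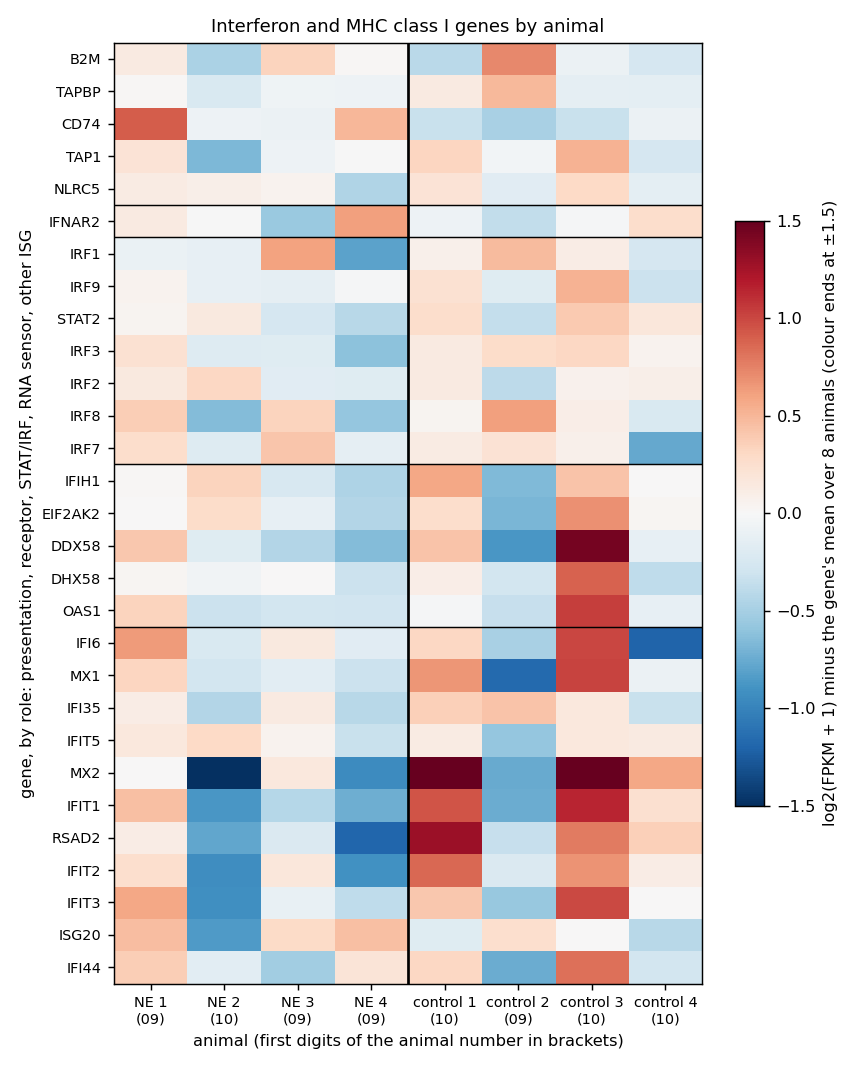
Level of the 29 tested genes in each fetus, as log2(FPKM + 1) minus the gene's mean over 8 animals (red above, blue below, colour ending at 1.5 either way), norepinephrine left of the black line, number digits in brackets. Control 3 is red across the RNA sensors and most effectors, and control 2 and norepinephrine 2 are blue in many of them.

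The RNA sensors had small differences, and the sign was negative in all 5. IFIH1 encodes MDA5, a sensor of long double-stranded RNA, on chromosome 2 at 146343186 to 146404420. It stood at 24.9, 31.2, 20.7 and 17.5 FPKM with norepinephrine and at 37.4, 15.2, 33.6 and 24.7 FPKM in controls, with norepinephrine 2 highest and control 2 lowest of their groups (-0.18, SE 0.28, limma adjusted p = 0.887; -0.43 without control 2 and -0.018 without control 1). EIF2AK2, the kinase PKR that halts translation on binding double-stranded RNA, stood at 14.2, 17.4, 12.9 and 10.2 FPKM with norepinephrine and at 17.2, 8.43, 23.4 and 14.6 FPKM in controls (-0.15, SE 0.28, adjusted p = 0.912; -0.40 without control 2 and 0.059 without control 3). In both genes control 2 was the lowest of all 8 animals, and the sign turned positive with the number digits or gestational age as a covariate. DDX58, which encodes the sensor RIG-I, was at 3.41 to 8.16 FPKM with norepinephrine and at 2.80 to 17.8 FPKM in controls, the 17.8 FPKM being control 3 (-0.44, SE 0.45; -0.80 without control 2, -0.030 without control 3 and 0.14 with gestational age as a covariate). DHX58, which encodes the regulator LGP2, differed by -0.16 (SE 0.27), turning positive without control 3 and with gestational age as a covariate. OAS1, which makes short oligoadenylates on binding double-stranded RNA, lies on an unplaced scaffold and was low, at 0.561 to 1.46 FPKM with norepinephrine and 0.540 to 2.99 FPKM in controls (-0.28, SE 0.32, turning positive without control 3).

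The STAT and IRF factors were steadier, and 5 of 7 were below 0. IRF3, which carries the signal from RNA sensors to the interferon genes, came nearest to a difference. It lies on chromosome 14 at 55091773 to 55108548 and stood at 36.8, 27.2, 27.5 and 20.0 FPKM with norepinephrine and at 34.3, 38.1, 38.9 and 32.3 FPKM in controls. Norepinephrine 1 was the only norepinephrine animal within the control range. The means were 27.9 ± 6.90 FPKM with norepinephrine and 35.9 ± 3.12 FPKM in controls (-0.38, SE 0.18, limma adjusted p = 0.675; -0.24 without norepinephrine 4). The table lists BCL2L12 at the same locus, so the value may hold reads of both genes.

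IRF1, an activator of MHC class I genes, had the highest mean of the factors, at 53.6, 52.7, 87.7 and 32.5 FPKM with norepinephrine and 60.4, 80.3, 62.2 and 48.2 FPKM in controls. The norepinephrine animals held both its highest and its lowest value (-0.21, SE 0.28, adjusted p = 0.867; above 0 without norepinephrine 4 and with gestational age as a covariate). IRF9, the DNA-binding partner of STAT2, stood at 41.9, 36.9, 36.5 and 39.7 FPKM with norepinephrine and at 47.3, 35.3, 58.1 and 32.0 FPKM in controls. Its spread was 2.52 FPKM with norepinephrine and 11.9 FPKM in controls (-0.12, SE 0.18, adjusted p = 0.890; 0.038 without control 3). STAT2 averaged 30.0 ± 5.45 FPKM with norepinephrine and 35.7 ± 7.70 FPKM in controls (-0.24, SE 0.19), and the sign turned with the number digits or gestational age as a covariate. IRF8, a factor of myeloid cells, differed by -0.26 (SE 0.29), with -0.43 without norepinephrine 1 and -0.092 without norepinephrine 2. IRF2, which can oppose IRF1, differed by 0.050 (SE 0.17; below 0 with equal library totals), and IRF7, the amplifier of interferon production, by 0.17 (SE 0.24), although its locus in the table spans 22 other names.

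Of the receptor, IFNAR2 alone had a row under its symbol. It stood at 11.4, 10.3, 6.70 and 16.3 FPKM with norepinephrine and at 9.70, 7.77, 10.2 and 12.6 FPKM in controls, and norepinephrine animals held both ends of the range (0.097, SE 0.25, adjusted p = 0.935; below 0 with equal library totals). IFNAR2 lies on chromosome 1 at 120551218 to 120571823. A row named IFNAR1E lies on the same chromosome, at 120422988 to 120448951, and RefSeq gives that name as a synonym of IFNAR1. IFNAR1E, chosen after its values were seen, stood at 34.2, 44.9, 35.8 and 36.4 FPKM with norepinephrine and at 55.5, 41.1, 51.0 and 56.2 FPKM in controls. Norepinephrine 2 was the only norepinephrine animal above the lowest control, control 2. The log2 difference was -0.42 (SE 0.14, limma adjusted p = 0.576), and it was -0.24 with the number digits as a covariate.

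Antigen presentation was led by B2M, the most abundant member by far (chromosome 7, 99939442 to 99944153). It stood at 4876, 3199.6, 5615 and 4492 FPKM with norepinephrine and at 3361, 7320.2, 4184 and 3718 FPKM in controls. Control 2 was highest and norepinephrine 2 lowest, and the groups overlapped throughout. The means were 4546 ± 1011 FPKM with norepinephrine and 4646 ± 1814 FPKM in controls (0.010, SE 0.31, adjusted p = 0.995). With the number digits in the model the difference was -0.39 (adjusted p = 0.383), with equal library totals it was -0.14, and with median-ratio scaling it was -0.0032.

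TAPBP, or tapasin, holds empty class I molecules at the peptide transporter. Its gene on chromosome 20 (7571732 to 7581313) stood at 224, 188, 212 and 210.3 FPKM with norepinephrine and at 243, 310.3, 202 and 201 FPKM in controls. The norepinephrine animals were closer together than the controls, of which control 2 was highest (-0.18, SE 0.16, adjusted p = 0.800). Without control 2 the difference was -0.043, and with the number digits as a covariate it was -0.36. TAP1, a subunit of that transporter, was at 17.4 to 33.0 FPKM with norepinephrine and 23.8 to 41.3 FPKM in controls (-0.28, SE 0.23; -0.099 without norepinephrine 2 and -0.15 without control 3), and the table lists the immunoproteasome gene PSMB9 at the same locus. NLRC5, the transactivator of class I genes, was low, at 2.00 to 3.49 FPKM with norepinephrine and 2.67 to 4.07 FPKM in controls (-0.097, SE 0.20, and above 0 with the number digits or gestational age as a covariate).

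CD74, the invariant chain that guides MHC class II, was the member with the largest positive difference. It lies on chromosome 5 at 59256119 to 59263326 and stood at 66.7, 33.3, 33.0 and 50.0 FPKM with norepinephrine and at 27.7, 24.8, 27.7 and 33.1 FPKM in controls. Control 4 reached just above norepinephrine 3, and norepinephrine 1 and 4 stood well clear of all controls. The means were 45.7 ± 16.1 FPKM with norepinephrine and 28.3 ± 3.48 FPKM in controls (0.62, SE 0.23, 95% interval 0.11 to 1.13, limma adjusted p = 0.597). With gestational age as a covariate the difference was 0.28. HLA-DRA, a class II chain carried by antigen-presenting cells, had its highest values in the same animals. It stood at 26.3, 8.50, 9.18 and 18.4 FPKM with norepinephrine and at 8.85, 4.17, 8.83 and 10.4 FPKM in controls (0.79, SE 0.38, adjusted p = 0.679). HLA-DMA, which loads class II peptides, differed by -0.11 (SE 0.39). Norepinephrine 1 and 4 also had the highest summed leukocyte and macrophage markers, 378 and 371 FPKM. The sums were 266 and 283 FPKM in norepinephrine 2 and 3 and 342, 312, 246 and 288 FPKM in control 1 to 4. Single markers did not all follow the sum. Norepinephrine 4 was the highest animal in LAPTM5 (106 FPKM) and the lowest in PTPRC (6.87 FPKM). The part of these markers in the CD74 and HLA-DRA values was not tested.

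Within the 2 number sets the sign of the difference was opposite in most members. Among those numbered 10, norepinephrine 2 was below the mean of controls 1, 3 and 4 in 26 of 29 members (background 49.4%). Among those numbered 09, the mean of norepinephrine 1, 3 and 4 was below control 2 in 8 of 29 (background 54%). Norepinephrine 2 was below each of controls 1, 3 and 4 in 16 of 29 (background 29.9%). In 18 of 29 members the difference was below 0 in the 10 set and above 0 in the 09 set, a pattern of 19.6% of all rows. In MX1, ISG20, IFIT1, IFIT3, DDX58 and OAS1, 6 of 29, this held for every animal of each set (background 4.58%). The median member difference was -0.26 in the 10 set, where that of all rows was 0.0024, and 0.18 in the 09 set, where it was -0.036. Some cell type markers split alike. Below 0 in the 10 and 09 sets were 11 and 3 of 13 leukocyte, 9 and 2 of 9 mesenchymal and 6 and 1 of 8 acinar markers. Others did not: the counts were 10 and 9 of 10 endothelial, 2 and 2 of 5 duct and 2 and 4 of 15 islet endocrine markers. The part of these cells in the member values was not tested. Each set holds 1 animal of one group, so that arm has no spread of its own, and control 2 and norepinephrine 2 decide these values.

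**Figure D4:**
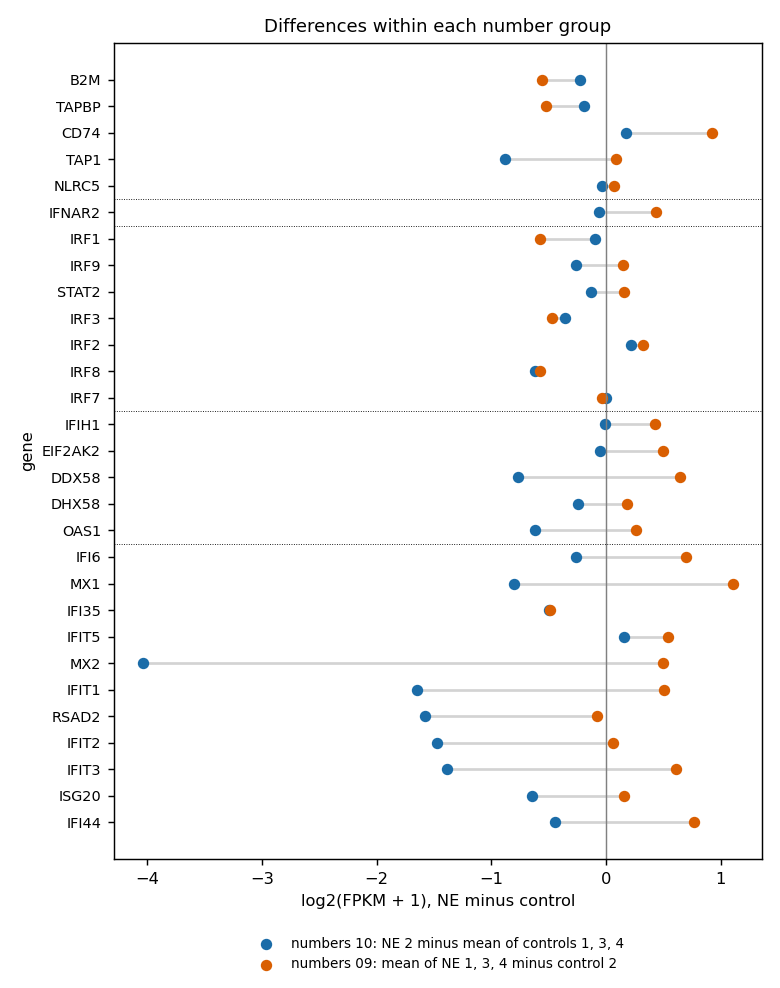
Norepinephrine minus control difference of log2(FPKM + 1) for each tested gene, in the animals numbered 10 (blue, norepinephrine 2 minus the mean of controls 1, 3 and 4) and in those numbered 09 (orange, the mean of norepinephrine 1, 3 and 4 minus control 2). MX1, MX2, IFIT1 and IFIT3 lie left of 0 in blue and right of 0 in orange, while IRF3, IRF8, IFI35 and RSAD2 lie left of 0 in both and IFIT5 lies right of 0 in both.

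The difference between the sets was tested with an interaction term in limma, a test added after these values were seen. It called 0 of 29 members and 16 of 13252 rows (0.121%) at an adjusted p under 0.05. Unadjusted, it reached p under 0.05 in 4 members, MX2, MX1, IFIT1 and IFIT3, all more negative in the 10 set (background 5.61%, and 2.07% in that direction). MX2 differed by -4.03 in the 10 set and by 0.50 in the 09 set (interaction -4.53, SE 0.87, limma adjusted p = 0.619). MX1 differed by -0.81 in the 10 set and by 1.11 in the 09 set (interaction -1.91, SE 0.61, adjusted p = 0.848). The members that were below 0 in both sets were B2M, TAPBP, IRF1, IRF3, IRF7, IRF8, IFI35 and RSAD2, 8 of 29 (background 29.6%). IRF3 differed by -0.36 in the 10 set and -0.47 in the 09 set, IFI35 by -0.50 and -0.49 and IRF8 by -0.62 and -0.58. B2M differed by -0.22 in the 10 set and -0.56 in the 09 set, TAPBP by -0.19 and -0.52 and IRF1 by -0.10 and -0.58. RSAD2 was uneven, at -1.58 in the 10 set and -0.081 in the 09 set, and IRF7 was near 0 in both, at -0.0030 and -0.035. CD74, IRF2 and IFIT5 were above 0 in both, CD74 by 0.17 in the 10 set and 0.93 in the 09 set.

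Between the number sets themselves, with treatment in the model, 4 of 29 members passed at an adjusted p under 0.05 in limma. That is 13.8%, below the 16.5% of all rows that passed. B2M and ISG20 were lower in animals numbered 10 (background 10.4% of all rows lower), and IRF2 and IFIH1 were higher there (background 6.06%). B2M averaged 3616 ± 436 FPKM in the 10 animals and 5576 ± 1253 FPKM in the 09 animals, without overlap (SD, n = 4 each; log2 difference -0.80, SE 0.14, limma adjusted p = 0.0148). ISG20 averaged 1.44 ± 0.583 FPKM in the 10 animals and 2.94 ± 0.306 FPKM in the 09 animals, also without overlap (-0.85, SE 0.23, adjusted p = 0.0419). IFIH1 averaged 31.7 ± 5.30 FPKM in the 10 animals and 19.6 ± 4.19 FPKM in the 09 animals (0.78, SE 0.20, adjusted p = 0.0361). IRF2, on chromosome 26 at 13594476 to 13676008, stood at 25.2, 28.5, 20.1 and 19.9 FPKM in norepinephrine 1 to 4 and at 25.1, 17.1, 23.9 and 24.3 FPKM in control 1 to 4, and averaged 25.4 ± 2.08 FPKM in the 10 animals and 20.6 ± 3.38 FPKM in the 09 animals (0.44, SE 0.12, adjusted p = 0.0441). In 2 further members, STAT2 and EIF2AK2, all animals numbered 10 were above all numbered 09 (background 10.6%), without passing the adjusted test. These calls rest on few animals: 0 members were called without control 2 and 0 with gestational age as a covariate. Without norepinephrine 2, norepinephrine 3, control 1 or control 3 it was 1 member each, and without norepinephrine 4 or control 4 it was 2.

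Other genes of the pathway, 75 tested of 114 symbols, gave 0 calls between norepinephrine and control islets at an adjusted p under 0.05 (limma; lowest 0.460). Below 0 were 56 of 75, where 47.4% of all rows were, with a median of -0.16. With the number digits as a covariate their median was -0.012, where that of all rows was -0.018, and in the 09 set 34 of 75 were below 0, with a median of 0.033. Before adjustment 3 reached p under 0.05 lower and 4 higher (background 3.74% lower and 3.61% higher). Among interferon signalling genes 12 of 17 were below 0. TYK2, the kinase on IFNAR1, differed by -0.26 (SE 0.17). Among nucleic acid sensing genes 12 of 14 were below 0, and their median of -0.18 turned to 0.020 with the number digits as a covariate. In this list were MAVS, the mitochondrial adaptor of the RNA sensors, at -0.34 (SE 0.17) and TMEM173, which encodes the DNA-sensing adaptor STING, at -0.75 (SE 0.43). With the number digits as a covariate MAVS was at -0.18 and TMEM173 at -1.33. Control 2 stood at 9.02 FPKM in TMEM173 and the other animals at 0.775 to 4.69 FPKM.

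Class I antigen processing had 10 of 15 genes below 0, with a median of -0.11, and genes without overlap on both sides. TAPBPL, a tapasin-like peptide editor on chromosome 3 (207872657 to 207878690), stood at 31.1, 29.4, 26.0 and 24.0 FPKM with norepinephrine and at 40.6, 37.2, 50.3 and 41.6 FPKM in controls. All norepinephrine animals were below all controls, which 2.35% of all rows showed. The means were 27.6 ± 3.21 FPKM with norepinephrine and 42.4 ± 5.59 FPKM in controls (-0.60, SE 0.14, limma adjusted p = 0.460), with -0.57 in the 10 set and -0.45 in the 09 set. CANX, the lectin chaperone calnexin that first folds class I chains, had all norepinephrine animals above all controls (background 1.88%), at 212 to 296 FPKM with norepinephrine and 154 to 207 FPKM in controls (0.47, SE 0.15, adjusted p = 0.574). PDIA3 and CALR, which join tapasin in the loading complex and also fold other secretory proteins, differed by 0.50 and 0.45; both were named after their values were seen.

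Of 27 further interferon-stimulated genes, 21 were below 0 (47.4% of all rows), with a median of -0.22. The median was 0.055 with the number digits as a covariate, and 0.37 in the 09 set, where 9 of 27 were below 0. IFI30, a thiol reductase that opens antigens for class II loading, went the other way. It stood at 16.7, 5.24, 13.9 and 11.8 FPKM with norepinephrine and at 3.58, 3.36, 4.84 and 4.59 FPKM in controls, with all norepinephrine animals above all controls (1.25, SE 0.30, adjusted p = 0.492). The difference was 0.23 in the 10 set and 1.78 in the 09 set, and the table lists IL12RB1 and MAST3 at the same locus. Between the number sets, with treatment in the model, 8 of the 75 were higher in animals numbered 10 (background 6.06%) and 2 were lower (background 10.4%) at an adjusted p under 0.05. The higher ones, named after their values were seen, included ADAR, which edits double-stranded RNA (0.78, adjusted p = 0.0146), and RFX5, a factor of MHC promoters (1.04, adjusted p = 0.0103).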

How the data were processed

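Islets picked by hand from 8 fetuses gave 1 messenger RNA library each. The authors deposited 1 table of FPKM values. Per the submitters' processing notes, TopHat2 2.0.1, Cufflinks 2.1.1, Cuffdiff and build Oar_v3.1 were used; settings are not stated. Of its 25000 rows, 165 carry several gene names and 6805 an Ensembl ID alone. Groups were taken from the labels. Depth is not stated: the steps of low FPKM values put norepinephrine 1, 2 and 3 at 0.648, 1.009 and 0.726 and controls 3 and 4 at 1.173 and 1.084 times the depth of control 1, while that of norepinephrine 4 and control 2 is unknown, so no counting intervals are given.

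Starts were raised by 1 to count from 1. Rows with a mean of at least 1 FPKM over 8 animals were fitted as log2(FPKM + 1) in limma 3.58.1 (R 4.3.3; intensity trend, Benjamini-Hochberg adjustment over 13252 rows, threshold 0.05), tested on simulated data first. Norepinephrine was compared with control over all animals, with the number digits as a covariate, and within each number set; the interaction was added after the data were seen. Alternatives were pseudocounts of 0.1 and 5, a minimum of 5 FPKM or none, equal summed FPKM, median-ratio scaling, no trend, gestational age, a replicate block, males only and each animal left out. Values of every animal were given for the 2 members of highest mean FPKM in each role group, members whose groups did not overlap, the 6 with the smallest p for treatment and the 4 for number set. Of each other pathway list, the 2 genes of smallest p were named, besides those said to be named after their values were seen. Of these, 1 gene is not reported here. Members and lists were chosen with earlier results of these data known. No gene sequences were used here, so the planned promoter search was not run.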

Additional observations from a re-analysis of the deposited data

Results flagged for a closer look

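In 5 cases 1 animal stood far from the other 3 of its group, measured as its gap to the nearest animal over the whole range of the group. By chance about 1 in 20 groups is flagged. Each member gave a norepinephrine and a control group, and the share of all rows so flagged is not given here. OAS1 did so in both groups, with norepinephrine 1 at 1.46 FPKM above 0.561 to 0.606 FPKM (0.95 of the range) and control 3 at 2.99 FPKM above 0.540 to 0.933 FPKM (0.839). In NLRC5, norepinephrine 4 at 2.00 FPKM lay below 3.27 to 3.49 FPKM (0.852). Control 2 was the low animal in IFIT5, at 25.6 FPKM below 42.2 to 43.2 FPKM (0.943), and in IRF2, at 17.1 FPKM below 23.9 to 25.1 FPKM (0.855).

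In 6 of 29 members every animal moved one way among those numbered 10 and the other way among those numbered 09 (4.58% of all rows). For IFIT1 this rests on a near tie, norepinephrine 4 at 7.248 FPKM against control 2 at 7.236 FPKM. For OAS1, a low gene, the same animals were at 0.596 and 0.540 FPKM. MX1 differed by -0.81 in the 10 set and 1.11 in the 09 set. IFIT1 differed by -1.65 in the 10 set and 0.505 in the 09 set, and IFIT3 by -1.38 in the 10 set and 0.606 in the 09 set. The values were -0.76 in the 10 set and 0.64 in the 09 set for DDX58, -0.65 in the 10 set and 0.153 in the 09 set for ISG20, and -0.62 in the 10 set and 0.263 in the 09 set for OAS1. The interaction in limma passed for none of the 6 after adjustment (0.848 to 0.870). Norepinephrine 2 and control 2 are the lone animals of these sets.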

How the results depend on the processing

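Over 546 values of single members under the alternatives, 497 kept the sign of the reported difference and 49 did not. No member passed between norepinephrine and control in any setting. Over all rows that count, 0, was 1 with equal summed FPKM, 1 with the number digits as a covariate, 1 in males only, and 0 to 2 with an animal left out (2 without norepinephrine 1, 1 without norepinephrine 3). Equal summed FPKM moved the median of all rows to -0.12 and put 25 members below 0 (median -0.33).

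Between the number sets, 2187 rows and 4 members passed. Equal summed FPKM gave 4346 rows, and dropping the filter gave 1 member. Gestational age gave 1 row and 0 members, and males only 17 rows and 0 members. Leaving out an animal gave 18 to 2280 rows and 0 to 5 members, lowest in both without control 2. The interaction called 16 rows, against 5 with a pseudocount of 0.1, 4 with a minimum of 5 FPKM and 56 without a filter. The causes were not tested.

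Same-numbered animals did not deviate together (correlations of -0.381 to 0.0932), and the main fit did not pair them. These few correlations cannot show that no pairing exists. With the replicate block 0 rows and 0 members passed between norepinephrine and control (lowest member adjusted p 0.163, limma). Between the number sets 471 rows and 2 members passed with that block.

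The sign turned with equal summed FPKM in B2M (-0.14), IRF2 (-0.099), IFIT5 (-0.067) and IFNAR2 (-0.047), with median-ratio scaling in B2M (-0.0032), and in males only in IRF2 (-0.0089) and IFIT5 (-0.098). With the number digits it turned in B2M (-0.39), IRF7 (-0.019), STAT2 (0.012), MX1 (0.15), ISG20 (-0.25), IFI44 (0.16), IFIH1 (0.21), NLRC5 (0.019) and EIF2AK2 (0.22). With gestational age it turned in B2M (-0.37), IRF1 (0.23), STAT2 (0.15), MX1 (0.33), ISG20 (-0.44), IFIH1 (0.42), DDX58 (0.14), DHX58 (0.14), NLRC5 (0.27), EIF2AK2 (0.47) and IFNAR2 (-0.29). With an animal left out the differences ran from -0.12 to 0.25 in B2M, -0.44 to 0.024 in IRF1, -0.073 to 0.12 in IRF2, -0.050 to 0.28 in IRF7, -0.24 to 0.038 in IRF9, -0.64 to 0.084 in MX1, -0.095 to 0.21 in IFIT5, -0.18 to 0.56 in IFI6, -0.32 to 0.21 in IFI44, -0.32 to 0.11 in DHX58, -0.44 to 0.019 in OAS1, -0.17 to 0.039 in NLRC5, -0.40 to 0.059 in EIF2AK2 and -0.092 to 0.30 in IFNAR2.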
